A study of Mus musculus with 9 samples.

Results

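Lung grafts that were free of obliterative bronchiolitis (OB) on histology, called non-OB grafts, were compared with the left lungs of sham-operated mice. The samples were chosen by their labels alone, and they are 6 of the 9 arrays of the series, 3 in the non-OB group and 3 in the sham group. The donors of the grafts were male C57BL/10 mice, the recipients were male C57BL/6 mice, and the mice were 8 to 12 weeks old. Both strains share their major histocompatibility haplotype and differ in minor histocompatibility antigens. Sham mice had a thoracotomy and no transplantation. All lungs were taken at day 21 after surgery, and each array measured a specimen of the left lung of 1 mouse, the rest of which went to histology. The p-values therefore reflect the spread between mice together with any spread between slides and scan days, which the main fit did not separate. Grafts were joined to the recipient by cuffs on the pulmonary artery, the pulmonary vein and the bronchus. A graft from a donor of the recipient's own strain was not part of the comparison, so effects of surgery and of the antigen mismatch cannot be told apart. By the study's own account shams of both strains were used, while the sample labels list the same donor and recipient strains for shams as for grafts, so the strain of a single sham is not given here. The other 3 arrays are grafts with OB, and they entered the fit only for the estimate of the spread and are set beside the non-OB values where stated.

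OB is the scarring and closure of small airways that limits the survival of lung transplants. T cells of the recipient can recognise peptides of polymorphic donor proteins, the minor histocompatibility antigens, even when the presenting MHC molecules match. Activated T cells and natural killer (NK) cells release interferon gamma, which acts on chemokine genes such as *Cxcl9* and *Cxcl10*, on guanylate-binding proteins, and through CIITA on MHC class II. CXCL9 and CXCL10 attract T cells that carry the receptor CXCR3. Inhibitory receptors such as PD-1, encoded by *Pdcd1*, appear on T cells after antigen contact and restrain them.

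Expression is given as the log2 of the array intensity after scaling, called the log2 signal, and differences are non-OB minus sham with their standard error (SE), 3 arrays in each group throughout. Single values in parentheses after a gene are log2 differences. A share of 58.6% to 69.6% of the spots on the non-OB arrays and of 65.3% to 67.1% on the sham arrays was well above background. Log2 signals correlated between non-OB arrays at 0.962 to 0.976, between sham arrays at 0.981 to 0.984 and between non-OB and sham arrays at 0.951 to 0.970. The lung markers *Sftpc*, *Sftpb*, *Ager*, *Scgb1a1*, *Foxj1* and *Cdh5* were well above background on all 6 arrays. Sham 1 stood apart from the other shams at some genes. Its *Tlr4* signal was 2.16, against 8.63 and 8.60, its *Arntl* signal was 6.09, against 9.55 and 9.80, and its *Per1* signal was 14.86, against 12.08 and 11.90. The arrays lay on 4 slides, of which slide 1 alone held both groups, namely non-OB 1, sham 1 and sham 2.

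In the non-OB grafts, many genes of the interferon gamma response, MHC presentation, T cells, macrophages, dendritic cells and cell division were called higher than in sham lungs, and most listed genes of cardiac muscle and some of the endothelium were called lower. A gene was called when its limma p-value, adjusted by Benjamini-Hochberg over all 56601 probes, was under 0.05 and its difference was at least 2-fold. Of 22905 named genes, each represented by its brightest probe, 578 were called higher (2.52%) and 258 lower (1.13%). Over all probes 1027 were called higher (1.81%) and 402 lower (0.710%). The median log2 difference was 1.91 for the genes called higher and -1.53 for those called lower, against -0.01 over all named genes. Rises of at least 16-fold numbered 30 and falls of that size 24. For every called gene the 3 non-OB arrays lay on one side of the 3 sham arrays, which was also the case, without a call being needed, for 15.5% of all genes above and 19.0% below. In 81 of the genes called higher, no sham array was well above background, and in 56 of those called lower no non-OB array was. In bulk tissue, fewer cells of a type and less RNA per cell cannot be told apart.

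**Figure D1:**
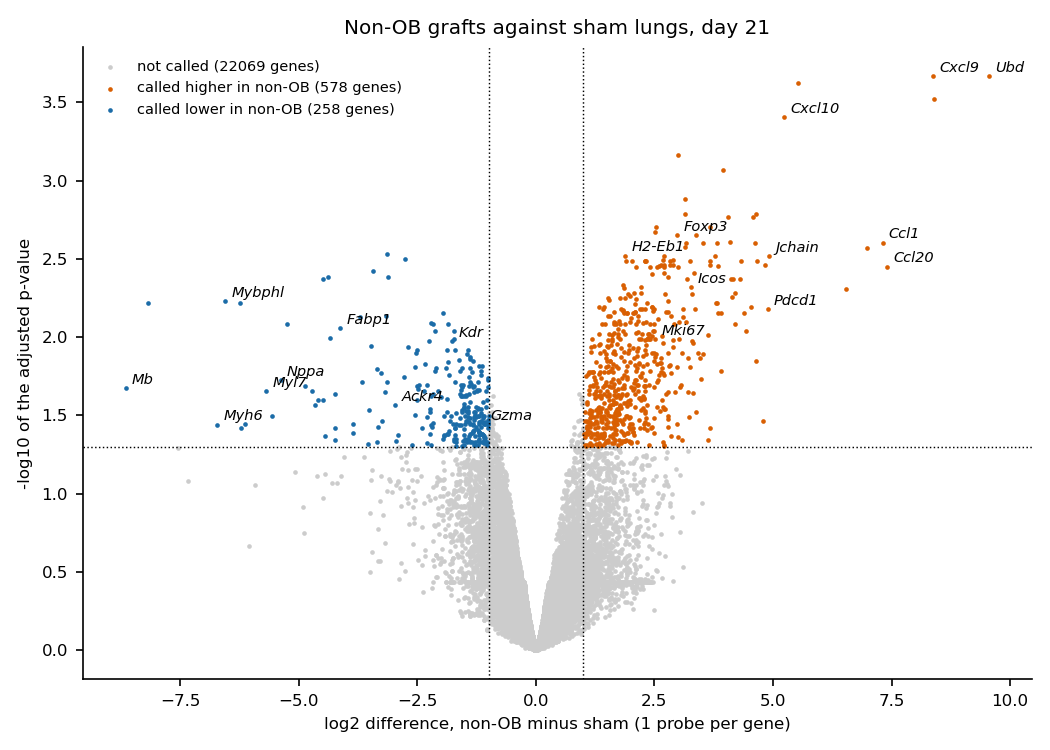
Volcano plot of the 22905 named genes, 1 probe per gene, with the log2 difference of non-OB minus sham on the x axis and -log10 of the limma adjusted p-value on the y axis. The 578 genes called higher lie to the right and the 258 called lower to the left.

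The 3 non-OB grafts did not move equally far. The median rise of the genes called higher was 2.14 in non-OB 1, 1.67 in non-OB 2 and 1.88 in non-OB 3, each against the sham mean. The median fall of the genes called lower was -1.79, -1.27 and -1.67 in the same order. Non-OB 1 held the largest rise at 321 genes and non-OB 2 at only 56. Within slide 1, non-OB 1 minus the mean of sham 1 and sham 2 had medians of 2.24 at the genes called higher and -1.79 at those called lower. The calls used these same arrays, so the sign within slide 1 was fixed by the choice of genes. These medians are therefore no test of slide. With slide as a fixed block no probe was called by limma, while 3691 higher and 5057 lower probes had an unadjusted p under 0.05. Without sham 2, the calls fell to 277 probes higher and 29 lower, and without non-OB 1, non-OB 3, sham 1 or sham 3 to between 415 and 583 higher and between 66 and 135 lower.

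Among the largest rises were chemokines and targets of interferon gamma. The log2 signal of *Cxcl9*, the CXCR3 ligand that interferon gamma induces, was 14.10, 12.68 and 12.91 in the non-OB grafts and 4.96, 4.74 and 4.88 in the sham lungs. The difference was 8.37 ± 0.36 (SE, limma adjusted p = 0.000214), or 331-fold. All 3 grafts lay far above the sham lungs, and the highest was non-OB 1. *Cxcl10*, a second CXCR3 ligand, was at 13.70, 12.79 and 12.82 against 7.67, 7.84 and 8.06, a difference of 5.24 ± 0.27 (adjusted p = 0.000392 from limma). *Ubd* encodes the ubiquitin-like modifier FAT10, which interferon gamma and tumour necrosis factor induce. Its signal was 12.06, 11.83 and 12.05 in the grafts, whereas its signals of 2.12, 2.03 and 3.13 in the sham lungs were not well above background. The rise of *Ubd* was therefore at least 244-fold (limma adjusted p = 0.000214). For such a bound, and for all bounds that follow, the brighter group's mean was divided by a floor for the dim group. The floor was, on each dim array, the larger of the probe's signal and the faintest signal there that was well above background.

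Further genes of this size had other roles. *Ccl20*, which attracts cells with the receptor CCR6, was at 11.76, 12.40 and 11.74 in the grafts and 3.42, 5.47 and 4.82 in sham lungs (difference 7.40 ± 0.70, limma adjusted p = 0.00354). *Ccl1*, a T cell chemokine that binds CCR8, was at 10.42, 9.41 and 10.73 against 1.93, 4.19 and 2.51, where 1 sham array was well above background (difference 7.31 ± 0.58, limma adjusted p = 0.00249). Both chemokines were close to background in the sham lungs and bright in every graft. For *Ccl1*, and for *Ccl20* and *Lbhd2* with 2 of 3 sham arrays well above background, the size of the difference depends on sham signals at background. *Jchain*, which joins the units of polymeric IgA and IgM, was at 14.74, 14.53 and 13.64 against 9.45, 9.18 and 9.54 (difference 4.91 ± 0.42, limma adjusted p = 0.00305). *Saa3*, an acute phase protein, had the widest spread among the grafts of the 15 genes with the largest rises, with 14.44, 11.18 and 13.41 against 8.27, 8.08 and 8.32, and its difference of 4.79 ± 0.89 (limma adjusted p = 0.0344) was called under 12 of 22 settings. The rises of *Lbhd2* (6.98 ± 0.58), *Ly6i* (4.66 ± 0.42) and, as bounds, *1810009J06Rik* (at least 77.7-fold), *Plekhs1* (at least 76.6-fold), *Dnase1l3* (at least 34-fold), *Serpina1c* (at least 13-fold) and *Tigit* (at least 9.41-fold) completed the 15 largest with *Pdcd1*, which is described with the T cell genes. *Dnase1l3* encodes a secreted DNase of macrophages and dendritic cells.

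**Figure D2:**
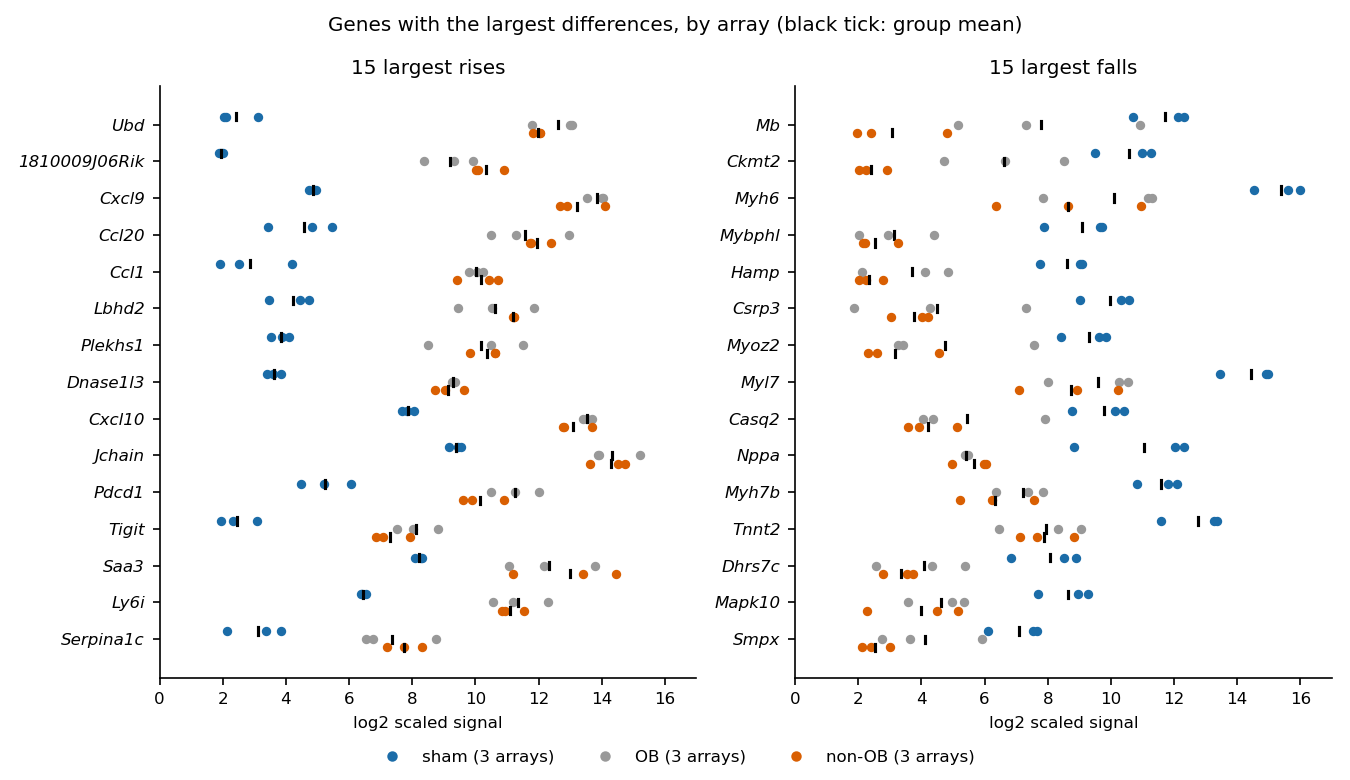
Log2 signal (x axis) of the 15 genes with the largest rises and the 15 with the largest falls, with 1 point for each non-OB, sham and OB array and a tick at each group mean. The non-OB and sham arrays do not overlap at any of these genes, and the falls spread more widely among arrays than most of the rises.

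Most listed genes that interferon gamma induces rose. Of 27 measured members of the list, 20 were called higher and none lower, and the median difference was 1.72 against -0.01 over all genes. All 3 grafts were above all 3 sham lungs at 24 of the 27, against 15.5% of all genes. *Ifng* itself was at 9.84, 9.27 and 9.13 in the grafts and 6.17, 6.84 and 7.23 in the sham lungs (difference 2.67 ± 0.36, limma adjusted p = 0.0109). Grafts and sham lungs did not overlap at the cytokine gene, and non-OB 1 was the highest graft.

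The effector GTPases, which act on membranes around intracellular pathogens, rose together. *Gbp5* was at 12.09, 11.16 and 11.73 against 8.99, 9.17 and 9.13 (difference 2.56 ± 0.24, limma adjusted p = 0.00354). *Igtp* was at 14.73, 14.05 and 14.29 against 11.72, 12.07 and 12.04 (difference 2.41 ± 0.23, limma adjusted p = 0.00354). *Gbp8* (2.81), *Iigp1* (2.72), *Gbp6* (2.63), *Gbp2* (1.72), *Irgm1* (1.69), *Irgm2* (1.66) and *Gbp3* (1.63) were also called higher. Gbp and Irg genes are families of similar copies, and a probe may also take up transcripts of a relative. The receptor chain *Ifngr1* (0.07), the receptor chain *Ifngr2* (0.09) and the kinase *Jak1* (-0.07) were not called. The transcription factor *Irf1* was not called either, with 14.77, 14.48 and 14.66 against 14.21, 14.01 and 14.11 (difference 0.53 ± 0.18, limma adjusted p = 0.2).

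Promoter sequence was read for *Gbp5*, *Igtp* and *Cxcl10* because they are called members of this list whose upstream window holds an interferon motif, and the 250 bases before the start of each gene are shown 5′ to 3′ on the strand of the gene. They are RefSeq sequences of GRCm38.p6, at chr3:142496684-142496933 on the plus strand for *Gbp5*, chr11:58199306-58199555 on the plus strand for *Igtp* and chr5:92348890-92349139 on the minus strand for *Cxcl10*. Capitals mark the letters of the gamma-activated site, TTCNNNGAA, and of the core of the interferon-stimulated response element (ISRE), which is a pair of GAAA tetramers with any pair of bases between them, on either strand.
Gbp5: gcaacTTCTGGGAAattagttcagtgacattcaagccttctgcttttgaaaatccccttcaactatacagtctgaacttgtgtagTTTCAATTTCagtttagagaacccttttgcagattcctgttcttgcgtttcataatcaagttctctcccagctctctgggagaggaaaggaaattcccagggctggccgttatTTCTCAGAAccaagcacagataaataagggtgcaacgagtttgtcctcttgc
Igtp: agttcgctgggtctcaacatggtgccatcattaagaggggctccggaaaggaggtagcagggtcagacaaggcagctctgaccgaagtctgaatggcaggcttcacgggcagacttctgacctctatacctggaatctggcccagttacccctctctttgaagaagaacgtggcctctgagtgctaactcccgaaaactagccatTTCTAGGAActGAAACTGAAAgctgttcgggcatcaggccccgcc
Cxcl10: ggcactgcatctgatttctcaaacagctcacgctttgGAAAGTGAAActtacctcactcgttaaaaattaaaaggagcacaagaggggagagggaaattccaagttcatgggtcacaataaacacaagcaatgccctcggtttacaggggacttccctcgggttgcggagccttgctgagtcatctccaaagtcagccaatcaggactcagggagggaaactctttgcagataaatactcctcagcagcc

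The window of *Gbp5* held 2 matches to TTCNNNGAA, 245 and 52 bases before the start, and 1 match to the ISRE core on the opposite strand, 165 bases before it. In *Igtp* the 2 motifs lay next to each other without overlap, 45 and 34 bases before the start, and *Cxcl10* held the ISRE core 213 bases before it. Of the 20 called genes of the list, 12 had a window in the RefSeq table. Among these, TTCNNNGAA was found in 5 (41.7%) and the ISRE core in 8 (66.7%), against 8.13% and 3.46% of the windows of all 27025 genes. Over all genes called higher, 441 of 578 had a window, of which 42 (9.52%) held TTCNNNGAA and 54 (12.2%) the ISRE core. Of the 204 genes called lower that had a window, 12 (5.88%) and 5 (2.45%) held them. A match is a run of letters and not a site shown to be bound.

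Genes of the type I interferon response rose in part. Of 25 measured members 10 were called higher and none lower, with a median difference of 0.89. *Oas1a*, which makes the activator of RNase L, rose by 2.32 ± 0.21 (limma adjusted p = 0.00324), and *Irf7*, a regulator of interferon genes, rose by 1.99 ± 0.24 (limma adjusted p = 0.00801). *Isg15* (1.54) and *Ifit1* (1.28) were called, and *Ifit2* (0.61) was not. *Ifnb1*, which encodes interferon beta, was well above background on 1 non-OB array and no sham array and was not called. Many of these genes also respond to interferon gamma.

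MHC class II genes, whose products present peptides to CD4+ T cells, were higher in every graft. Of 13 measured genes of class II presentation 10 were called higher and none lower, and the median difference was 1.84. At all 13 the grafts lay above the sham lungs, against 15.5% of all genes. *H2-Eb1* was at 17.57, 17.55 and 17.45 against 15.46, 15.72 and 15.76 (difference 1.88 ± 0.16, limma adjusted p = 0.00301). *H2-Ab1* was at 17.31, 17.71 and 17.64 against 15.83, 15.99 and 16.21 (difference 1.54 ± 0.20, limma adjusted p = 0.00954), and its 3 other probes were called in the same direction. Both were already bright in sham lungs, and the grafts differed among themselves by less than the gap to the sham lungs. *Ciita*, the master regulator of class II, was at 14.16, 13.46 and 14.45 against 11.44, 11.95 and 12.44 (difference 2.08 ± 0.36, limma adjusted p = 0.0278). *H2-Eb2* (2.32), the invariant chain protease *Ctss* (2.22), *H2-Aa* (1.99) and the invariant chain *Cd74* (1.84) were also called.

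Class I presentation had 9 of 19 members called higher, none lower and a median difference of 0.81. The heavy chains *H2-K1* (1.34) and *H2-D1* (1.17), the light chain *B2m* (1.08), the peptide transporter subunit *Tap1* (1.88) and the immunoproteasome subunits *Psmb9* (1.55) and *Psmb8* (1.51) were called. The H2 genes resemble one another, so a probe may also detect a relative. Among the 7 called class II genes with a RefSeq promoter window, 6 (85.7%) held CCAAT, the box bound by NF-Y, as did 8 of 9 called class I genes (88.9%) and 37.5% of all genes. CCAAT is short and common, and it was searched on both strands.

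Many T cell genes rose. Of 24 measured genes of the T cell receptor and its coreceptors 14 were called higher and none lower, with a median difference of 1.66. *Cd3e*, a chain of the receptor complex, was at 12.52, 12.06 and 12.53 against 10.43, 10.92 and 10.82 (difference 1.65 ± 0.23, limma adjusted p = 0.0122). *Icos*, a costimulatory receptor of activated T cells, was at 10.81, 10.03 and 10.86 against 6.63, 7.61 and 7.65 (difference 3.27 ± 0.34, limma adjusted p = 0.00481). Non-OB 2 was the lowest graft at both genes and still lay above every sham lung. The coreceptors did not pass the test. *Cd8a* was at 8.60, 8.14 and 8.83 against 5.91, 7.09 and 7.38 (difference 1.73 ± 0.40, limma adjusted p = 0.0685), *Cd8b1* differed by 0.81 (adjusted p = 0.274) and *Cd4* by 0.94 (adjusted p = 0.091).

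Inhibitory receptors and their ligands were among the strongest rises, with 10 of 18 measured checkpoint genes called higher, none lower and a median difference of 1.73, or 1.32 with bounded members at their bounds. With normexp background correction, which models the local background of each spot and is followed by quantile normalization, that median was 0.98. *Pdcd1* was at 10.91, 9.62 and 9.88 in the grafts and 5.21, 4.47 and 6.07 in the sham lungs (difference 4.89 ± 0.55, limma adjusted p = 0.00658), which is 29.6-fold. *Tigit* was at 7.94, 6.84 and 7.07 against 1.96, 2.33 and 3.08, none of the last well above background, a rise of at least 9.41-fold (limma adjusted p = 0.00347). The ranges of grafts and sham lungs were far apart at both receptors, and non-OB 1 was the highest graft at each. *Ctla4*, which competes for the ligands of CD28, rose at least 7.33-fold (limma adjusted p = 0.00301). *Tnfrsf9*, which encodes the costimulatory receptor 4-1BB, rose by 3.52 ± 0.28, and *Lag3*, a receptor for class II, by 2.82 ± 0.25. *Tox*, a transcription factor of chronically stimulated T cells, rose by 2.16 ± 0.27. The PD-1 ligand *Cd274* was at 11.19, 10.72 and 10.86 against 9.26, 9.36 and 9.44 (difference 1.57 ± 0.18, limma adjusted p = 0.00731), and the ligand gene *Pdcd1lg2* rose by 2.41 ± 0.30.

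Most genes of the cytotoxic machinery were not called. Of 14 measured effector genes 1 was called higher and 1 lower, against 2.52% and 1.13% of all genes. The median difference was 0.25. All grafts lay above all sham lungs at 8 of the 14 and below them at 2, against 15.5% and 19.0% of all genes. The mean of the list relative to the sham mean was 0.88, 0.44 and 0.69 in the grafts against -0.19, 0.14 and 0.05 in the sham lungs. *Gzmb*, a granule protease, was at 8.63, 8.00 and 7.79 against 8.66, 8.55 and 8.42 (difference -0.41 ± 0.26, limma adjusted p = 0.413). The pore-forming perforin gene *Prf1* was at 8.64, 8.85 and 8.21 against 8.61, 8.51 and 8.64 (difference -0.02 ± 0.24, limma adjusted p = 0.969). For both genes the arrays of the groups overlapped. *Gzma*, a granule protease of NK and T cells, was called lower, with 12.70, 12.69 and 12.50 against 13.54, 13.75 and 13.91 (difference -1.10 ± 0.21, limma adjusted p = 0.0359), and *Gzmc* was called higher (at least 4.17-fold, with 2 grafts well above background). *Gzmk*, a protease of memory T cells, varied widely, with 8.01, 5.37 and 6.44 against 2.12, 5.23 and 1.98, and was not called (limma adjusted p = 0.114). Of 18 NK cell receptor genes 4 were called higher, namely *Klrd1* (1.07), *Il2rb* (1.35), *Klri1* (at least 1.74-fold) and *Klri2* (at least 3.11-fold), with a median of 0.11 for the list. The activating receptors *Ncr1* (-0.61) and *Klrb1c* (-0.13) were not called.

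Among helper T cell genes 6 of 25 measured were called higher and none lower, against 2.52% and 1.13% of all genes. The median difference was 1.12, or 1.00 with bounds, and it was 0.21 with normexp. *Foxp3*, the transcription factor of regulatory T cells, was at 7.77, 7.96 and 8.29 against 4.79, 5.30 and 5.0 (difference 2.98 ± 0.23, limma adjusted p = 0.00222). *Il21*, a cytokine of follicular helper T cells, was at 6.61, 5.65 and 6.10 against 2.19, 2.09 and 1.92, the sham lungs not being well above background, a rise of at least 4.2-fold (limma adjusted p = 0.00171). The second *Il21* probe had a difference of opposite sign and was not called. The receptor genes *Il12rb1* (2.30) and *Il2ra* (2.16) were called. *Il10* was called on a rise of at least 1.37-fold that rests on 1 graft well above background. The lineage factor of type 1 helper cells, *Tbx21*, differed by 1.12 (limma adjusted p = 0.0666), and that of type 2, *Gata3*, by 0.00 (adjusted p = 0.999).

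**Figure D3:**
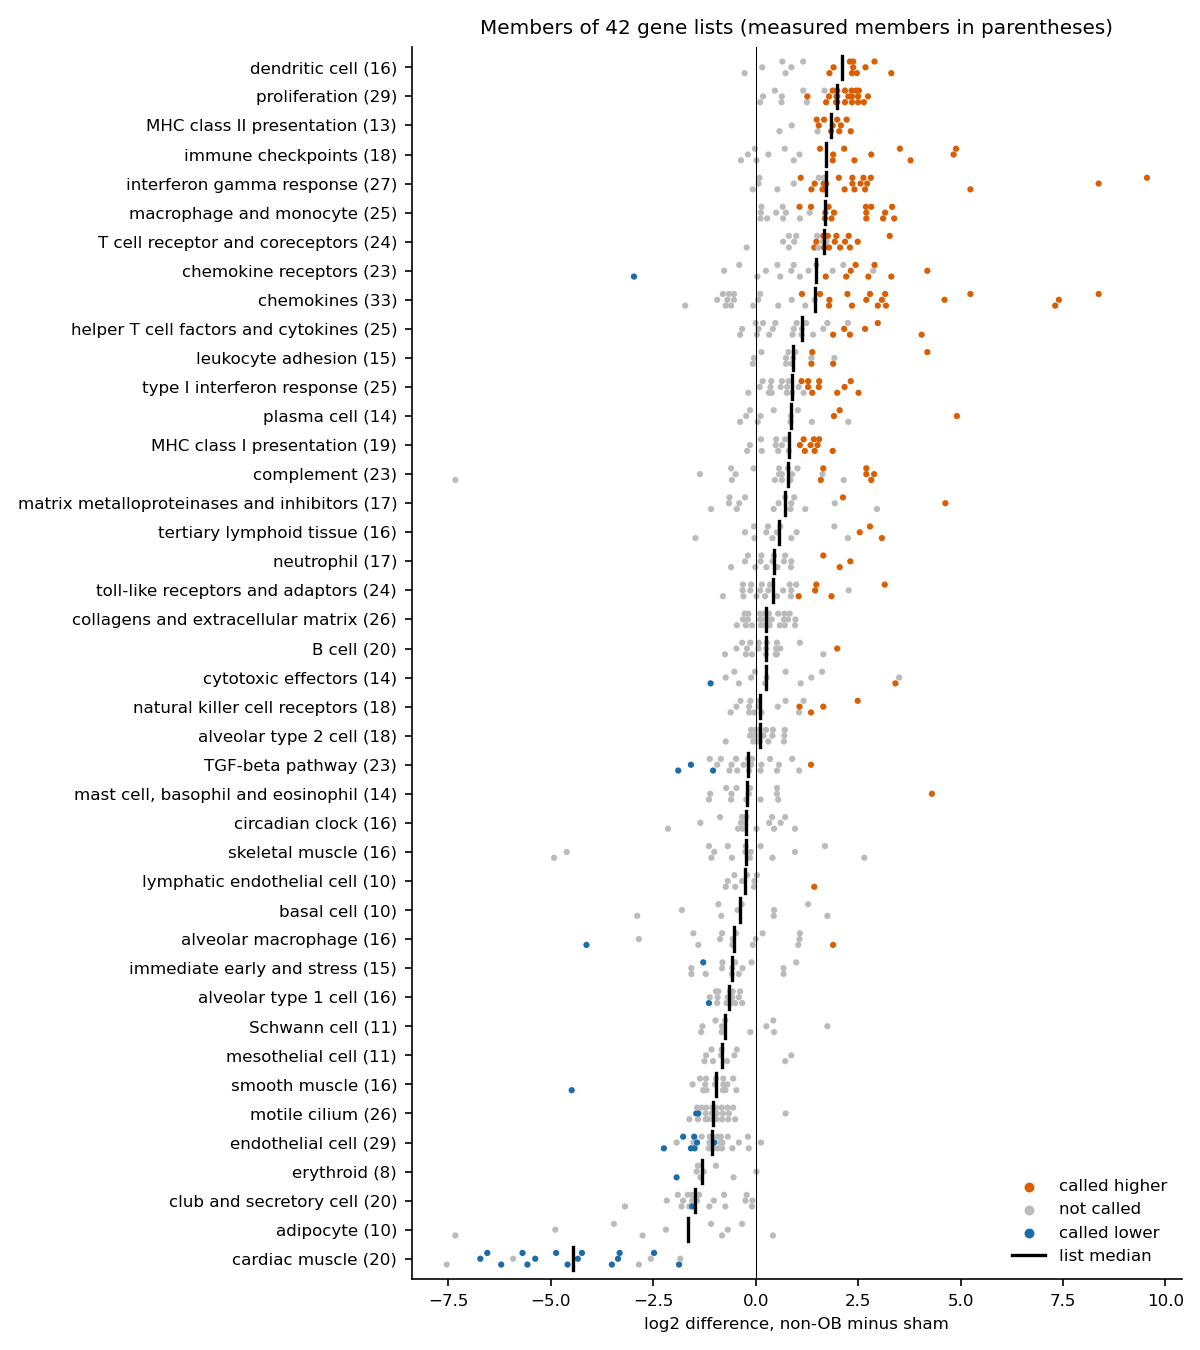
Log2 difference of non-OB minus sham (x axis) for the measured genes of each of the 42 gene lists, with 1 point per gene, called genes in colour and a line at the list median. Most immune, interferon and division lists lie mainly to the right of 0, and cardiac muscle, endothelial, smooth muscle and airway lists to the left. The alveolar macrophage list (median -0.52) and the mast cell, basophil and eosinophil list (median -0.20) lie mainly to the left.

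Chemokines that attract T cells and monocytes rose, while the list as a whole was mixed, with 17 of 33 measured members called higher, none lower and a median difference of 1.44, or 1.42 with bounds. *Ccl8*, a monocyte and T cell chemokine, was at 13.80, 13.64 and 13.25 against 8.23, 9.02 and 9.61 (difference 4.61 ± 0.36, limma adjusted p = 0.00249). *Ccl7* (3.18), *Ccl12* (2.98) and *Ccl2* (2.70), which signal through the monocyte receptor CCR2, were called too. *Ccl3*, a chemokine of monocytes and T cells, was at 9.46, 9.15 and 8.72 against 7.41, 7.24 and 7.30 (difference 1.79 ± 0.24, limma adjusted p = 0.0117), and *Ccl4*, a close relative, rose by 1.57 ± 0.23. The T cell chemokine *Ccl5* was bright in both groups and was not called, with 15.23, 14.51 and 14.51 against 13.70, 14.06 and 13.84 (difference 0.88 ± 0.26, limma adjusted p = 0.143). *Xcl1*, which attracts cross-presenting dendritic cells, rose by 3.16 ± 0.38, and *Ccl22*, a ligand of CCR4, by at least 2.68-fold.

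Of the chemokine receptor genes 8 of 23 were called higher and 1 lower, against 2.52% and 1.13% of all genes. The median difference was 1.48, or 0.62 with normexp. *Cxcr3*, the receptor of CXCL9 and CXCL10, rose by 2.90 ± 0.27 (limma adjusted p = 0.00347). *Cxcr6* (2.32), *Ccr8* (2.21) and *Ccr9* (1.71) rose, as did *Xcr1* (at least 3.18-fold) and *Ccr4* (at least 3.73-fold). The scavenging receptors moved in opposite directions. *Ackr1*, found on venules and red cells, was at 8.94, 8.42 and 9.48 against 3.61, 5.0 and 5.67 (difference 4.19 ± 0.51, limma adjusted p = 0.00819). *Ackr4*, which clears the ligands of CCR7, was at 4.78, 5.99 and 4.50 against 7.46, 8.37 and 8.34 (difference -2.97 ± 0.51, limma adjusted p = 0.0272).

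Genes of plasma cells and of lymphoid tissue rose only in part, and most B cell genes were not called. Over all genes 2.52% were called higher. Of 20 measured B cell genes 1 was called, *Cd72* (1.99), and the median difference was 0.26, which ranged from -0.19 to 0.61 as arrays were left out in turn. *Ms4a1* differed by -0.13 and *Cd79a* by -0.24. Among 14 plasma cell genes 3 were called higher, *Jchain* (4.91), *Mzb1* (2.05) and *Derl3* (1.91). Of 16 genes of tertiary lymphoid tissue 3 were called higher, namely *Cxcl13*, the B cell chemokine (3.08 ± 0.43), *Ccl19*, which guides T cells and dendritic cells (2.79 ± 0.32), and *Tnfsf11*, which encodes RANKL (2.54 ± 0.36). The list's median was 0.56.

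Macrophage genes rose at most measured members. Of 25 measured macrophage and monocyte genes 15 were called higher, none was called lower, all 25 differences were positive, and the median was 1.69. *Ms4a7*, a marker of monocyte-derived and tissue macrophages, was at 13.19, 12.89 and 12.67 against 9.09, 9.60 and 9.91 (difference 3.38 ± 0.26, limma adjusted p = 0.00222). *C1qa*, a chain of the first complement component made by macrophages, was at 13.42, 12.97 and 12.61 against 10.04, 10.21 and 10.64 (difference 2.70 ± 0.26, limma adjusted p = 0.00389). The grafts lay in a narrow band above the sham lungs at both. *Aif1* (3.33), the lipid receptor *Trem2* (3.16) and *Gpnmb* (3.11), the last 2 known from lipid-laden macrophages, and *Cd68* (1.78), a lysosomal protein, were called. *Adgre1*, which encodes F4/80, was not called (1.32 ± 0.29, limma adjusted p = 0.0564).

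Most genes of the resident alveolar macrophage were not called, where 2.52% of all genes were called higher and 1.13% lower. Of 16 measured 1 was called higher, *Itgax* (1.89 ± 0.17), which dendritic cells also express, and 1 lower, *Fabp1*, a fatty acid binding protein, with 5.48, 7.10 and 6.10 against 9.99, 10.39 and 10.68 (difference -4.13 ± 0.51, limma adjusted p = 0.00871). The median was -0.52, with a range of -0.86 to 0.01 when arrays were left out. *Siglecf*, the surface marker of these cells, differed by -0.87 ± 0.42 (limma adjusted p = 0.343) and the scavenger receptor *Marco* by 1.07 ± 0.68 (adjusted p = 0.4).

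Dendritic cell genes rose at 10 of 16 measured members, with none called lower and a median difference of 2.10, or 1.73 with bounds and 1.18 with normexp. *Flt3*, the growth factor receptor of the lineage, was at 10.30, 10.03 and 10.40 against 7.13, 7.63 and 7.93 (difference 2.68 ± 0.23, limma adjusted p = 0.00322). The genes *Batf3* (2.47), *Clec9a* (2.38) and *Xcr1*, which mark cross-presenting cells, were called, as were the maturation genes *Fscn1* (2.38) and *Cd83* (1.80). *Il12b*, a subunit of interleukins that drive type 1 and type 17 helper cells, rose by 2.90 ± 0.25 (limma adjusted p = 0.0032). The transcription factor *Zbtb46* differed by -0.27 and was not called.

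Most granulocyte genes were not called. Of 17 neutrophil genes 3 were called higher, against 2.52% of all genes, and the median was 0.45. These were *Lcn2* (2.31), *Clec4d* (2.05) and *Clec4e* (1.65), all of which macrophages or epithelium can also express. The abundant neutrophil genes *S100a8* (0.45) and *S100a9* (0.26) were not called. Of 14 genes of mast cells, basophils and eosinophils only *Prg2*, the eosinophil major basic protein, was called, with 7.69, 7.24 and 6.85 against 3.54, 2.07 and 3.27 (at least 9.25-fold, limma adjusted p = 0.00427).

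Innate sensors and complement changed at some members, where 2.52% of all genes were called higher and 1.13% lower. Among 24 Toll-like receptors and adaptors 5 were called higher and none lower, with a median of 0.43, or 0.21 with normexp. *Tlr11*, a receptor for profilin of protozoa, was at 7.33, 7.54 and 7.77 against 4.03, 4.40 and 4.76 (difference 3.15 ± 0.26, limma adjusted p = 0.00265). *Tlr1* (1.85), *Tlr6* (1.48), *Tlr13* (1.45) and the transport factor *Unc93b1* (1.05) were also called. *Tlr2*, which senses bacterial lipoproteins, was not, with 11.63, 11.64 and 11.30 against 10.49, 10.71 and 10.87 (difference 0.83 ± 0.18, limma adjusted p = 0.0593), although its groups did not overlap. Of 23 complement genes 6 were called higher, among them the receptor *C3ar1* (2.89 ± 0.39) and the alternative pathway genes *Cfb* (1.65) and *Cfp* (1.59), while *C3* (0.85) and *C4b* (0.89) were not. None was called lower, although the lowest difference in the list was -7.33.

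Most cell division genes rose. Of 29 measured genes 21 were called higher and none lower, and the median was 1.99, or 1.22 with normexp. All grafts were above all sham lungs at 26, against 15.5% of all genes. *Mki67*, expressed in dividing cells, was at 12.21, 11.31 and 11.09 against 9.12, 8.70 and 9.23 (difference 2.52 ± 0.33, limma adjusted p = 0.0103). The kinase gene *Cdk1* (2.74) and the topoisomerase gene *Top2a* (2.64) were called, whereas the polymerase clamp *Pcna* (0.18) was not. The mean of the list, relative to the sham mean, was 2.43 in non-OB 1, 1.64 in non-OB 2 and 1.28 in non-OB 3. The order of the grafts differed from that of the T cell list, with means of 1.83, 1.20 and 1.80.

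**Figure D4:**
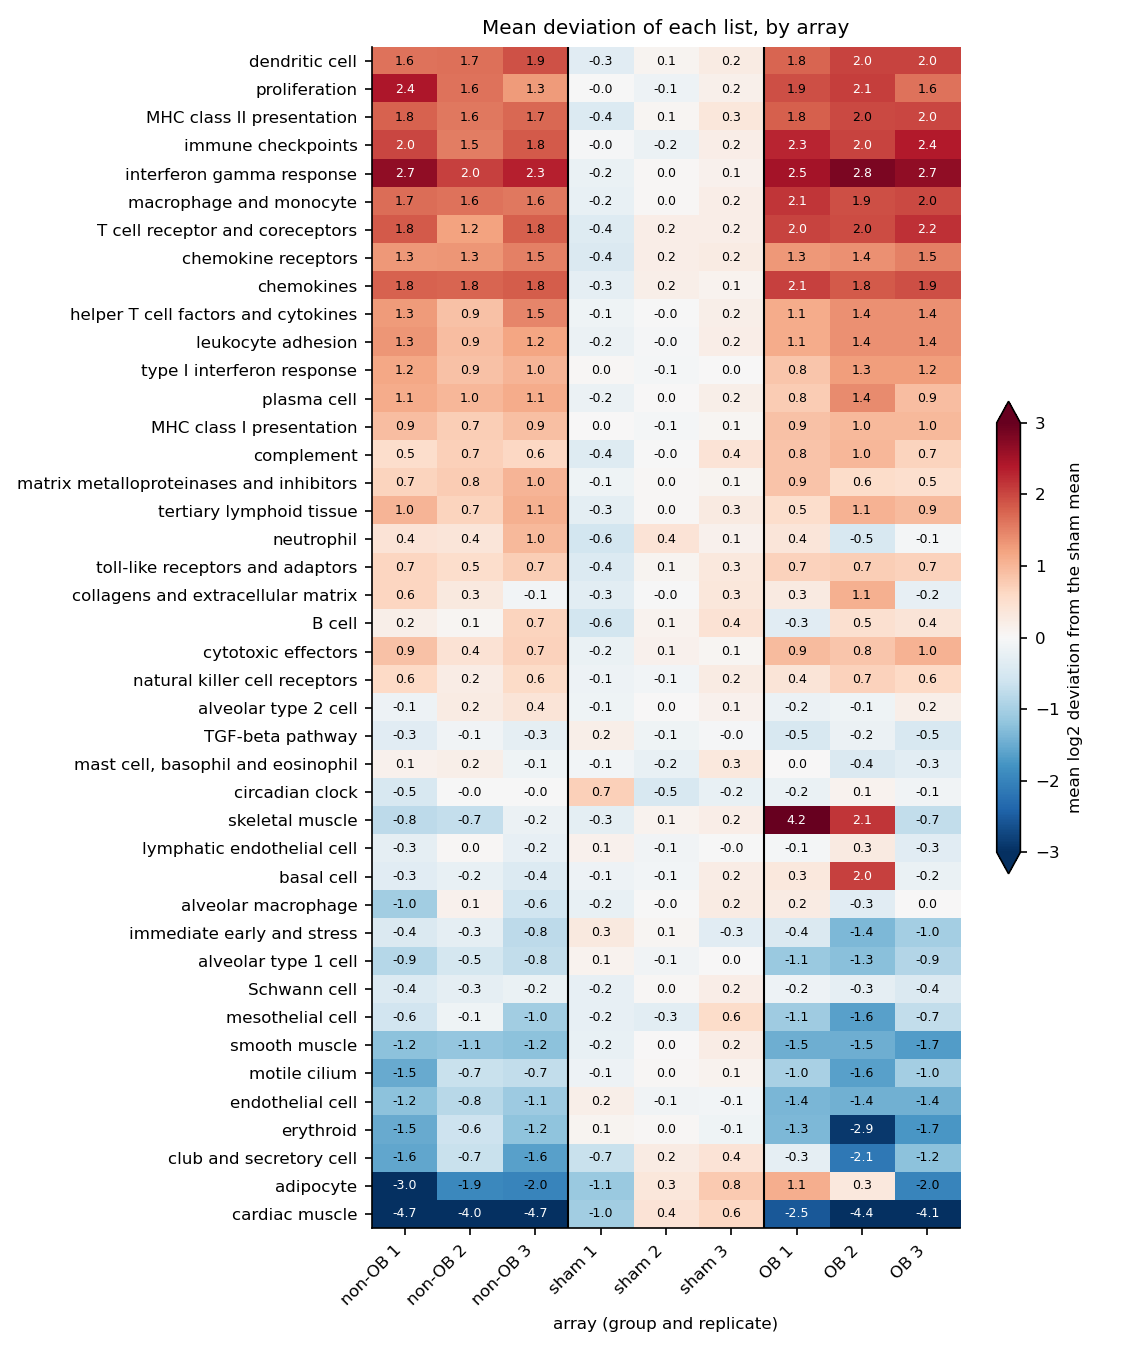
Mean log2 signal of each of the 42 gene lists on each array, relative to the mean of the sham arrays, as a colour scale. The non-OB columns are close to each other for most lists, cardiac muscle is lower on all 3 than on any sham array, and sham 1 is the lowest sham array for cardiac muscle.

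Most epithelial genes were not called, where 1.13% of all genes were called lower. Of 16 genes of the alveolar type 1 cell, which covers the gas exchange surface, all had negative differences, with a median of -0.66. At 15 all grafts were below all sham lungs, against 19.0% of all genes. Only *Hopx* (-1.14 ± 0.23, limma adjusted p = 0.0417) was called, and *Ager*, the defining receptor of that cell, was at 17.16, 17.43 and 17.26 against 17.79, 17.80 and 17.77 (difference -0.50 ± 0.18, limma adjusted p = 0.215). None of 18 genes of the surfactant-making type 2 cell was called, and their median was 0.09. *Sftpc* (0.19 ± 0.19) and *Sftpb* (0.42 ± 0.31), which encode surfactant proteins, had overlapping groups.

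Airway genes had medians further below 0, with wide spread among arrays. Over all genes 1.13% were called lower. All 20 club and secretory cell genes had negative differences with a median of -1.49, or -0.71 with slide as a fixed block, and 1 was called lower, *Aldh1a7* (-1.55, limma adjusted p = 0.0496). The club cell protein gene *Scgb1a1* was at 18.06, 18.49 and 18.58 against 18.65, 18.47 and 18.66 (difference -0.22 ± 0.96, limma adjusted p = 0.915). *Cyp2f2*, a club cell cytochrome, was at 15.28, 16.50 and 15.09 against 17.40, 17.43 and 17.48 without being called (difference -1.81 ± 0.61, limma adjusted p = 0.187). Its spread among the grafts was larger than among the sham lungs. Of 26 genes of motile cilia, which move mucus, 25 had negative differences and the median was -1.03. *Spag16* (-1.45) and *Dnah9* (-1.40) were called lower, a second *Dnah9* probe had the opposite sign, and the ciliogenesis factor *Foxj1* was not called (-0.96 ± 0.35, limma adjusted p = 0.222). None of 10 basal cell genes was called. *Krt5*, the basal cell keratin, was well above background on all sham arrays and on no graft (adjusted p = 0.442).

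Some endothelial genes were called lower, where 1.13% of all genes were called lower and 2.52% higher. Of 29 measured genes 7 were called lower and none higher, 28 differences were negative, and the median was -1.06. *Kdr*, the VEGF receptor, was at 12.39, 13.14 and 12.49 against 14.40, 14.51 and 14.42 (difference -1.77 ± 0.23, limma adjusted p = 0.0106). *Cdh5*, the junction cadherin of these cells, was at 12.45, 12.86 and 12.67 against 13.88, 13.61 and 13.51 (difference -1.01 ± 0.19, limma adjusted p = 0.0359). Non-OB 2 was the graft nearest to the sham lungs at both genes. *Ednrb*, an endothelin receptor (-2.24), *Eng*, a TGF-beta coreceptor (-1.58), *Bmx* (-1.50), *Bmpr2*, mutated in heritable pulmonary hypertension (-1.49), and the angiopoietin receptor *Tek* (-1.43) were called lower. *Pecam1* was not called (-0.57 ± 0.25, limma adjusted p = 0.289). Of 15 leukocyte adhesion genes 4 were called higher, the leukocyte genes *Selplg* (1.36), *Itgb2* (1.38) and *Itgax* and the venular *Ackr1*. The endothelial adhesion receptors *Vcam1* (0.92, adjusted p = 0.0622) and *Icam1* (-0.07, adjusted p = 0.867) were not called. Among 10 lymphatic endothelial genes 1 was called, *Thy1* (1.43), which T cells also express, and the median was -0.27.

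Cardiac muscle genes made up most of the largest falls. In mice a sleeve of heart muscle cells surrounds the pulmonary veins within the lung, so a dissected lung can hold these transcripts. Of 20 measured genes 15 were called lower and none higher, and the median was -4.46, or -4.29 with bounds and -2.84 with normexp. All 20 had every graft below every sham lung, against 19.0% of all genes. *Myh6*, the alpha myosin heavy chain, was at 8.64, 10.96 and 6.35 against 14.52, 15.61 and 15.98 (difference -6.72 ± 1.27, limma adjusted p = 0.0362). *Myl7*, the atrial light chain, was at 8.93, 10.22 and 7.09 against 13.45, 14.91 and 14.97 (difference -5.69 ± 0.93, limma adjusted p = 0.0222). The atrial hormone gene *Nppa* was at 6.06, 4.97 and 5.99 against 8.83, 12.04 and 12.30 (difference -5.38 ± 0.84, limma adjusted p = 0.0188). The grafts spread over several log2 units, and sham 1 was the lowest sham lung at each of these genes. *Mb*, myoglobin of heart and skeletal muscle, was well above background in no graft, with 1.96, 4.82 and 2.41 against 10.69, 12.14 and 12.31, a fall of at least 150-fold (limma adjusted p = 0.0211). The mitochondrial creatine kinase *Ckmt2* was at 2.04, 2.90 and 2.24 against 9.50, 10.99 and 11.27, at least 68.8-fold lower (limma adjusted p = 0.00606).

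Further genes of the contractile and calcium handling apparatus were lower in the same way. The bounds were at least 44.9-fold lower for *Csrp3*, 37.9-fold for the calcium buffer *Casq2*, 28.1-fold for the disc protein *Myoz2*, 24.4-fold for *Mybphl*, 15.9-fold for the kinase *Mapk10*, 12.1-fold for *Dhrs7c* and 6.15-fold for *Smpx*. *Myh7b* fell by 5.25 ± 0.64 and the troponin gene *Tnnt2* by 4.87 ± 0.78 on the log2 scale. *Hamp*, which encodes the iron hormone hepcidin, was at 2.01, 2.80 and 2.25 against 7.75, 9.07 and 9.01, at least 17.5-fold lower (limma adjusted p = 0.00607). The mean of the cardiac list relative to the sham mean was -4.70, -4.02 and -4.70 in the grafts and -1.04, 0.40 and 0.63 in the sham lungs. *Ckmt2*, *Mybphl*, *Hamp* and *Myh7b* were called under 19 of the 22 settings. *Myh6* and *Csrp3* were called under 10, *Myoz2* and *Casq2* under 11, *Nppa*, *Mapk10* and *Smpx* under 12, *Mb*, *Myl7* and *Dhrs7c* under 13 and *Tnnt2* under 14, and each of these lost its call without non-OB 1, sham 2 or sham 3. How much of the pulmonary veins each dissected lung held is not given in the sources used here, and its part in these falls, like that of the cuffs, was not tested.

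Other tissues that a dissected lung can carry were checked beside it. None of 16 skeletal muscle genes was called, their median was -0.25 (1.01 with slide as a fixed block), and their list mean was -0.79, -0.71 and -0.18 in the grafts against -0.30, 0.10 and 0.20 in the sham lungs. Of 16 smooth muscle genes all had every graft below every sham lung, against 19.0% of all genes, with a median of -0.98. *Pln*, which heart muscle also expresses, was called, at least 5.29-fold lower. *Acta2*, smooth muscle actin, was at 13.91, 13.69 and 14.03 against 14.55, 14.90 and 15.16 (difference -0.99 ± 0.26, limma adjusted p = 0.0958), and *Myh11* differed by -1.23 (adjusted p = 0.0628). No gene of the adipocyte list (10 measured, median -1.64, or -1.23 with bounds), the mesothelial list (11, -0.83) or the Schwann cell list (11, -0.74) was called. The lowest difference in the adipocyte list was -7.33. The adipocyte hormone gene *Adipoq* was well above background in no graft, with 2.00, 3.73 and 3.91 against 5.83, 8.93 and 9.56, and was not called (limma adjusted p = 0.178). Of 8 measured erythroid genes 1 was called lower, as were 1.13% of all genes. At 6 of the 8 every graft lay below every sham lung, against 19.0% of all genes. The erythroid median was -1.31, or -1.14 with bounds.

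Genes of the matrix proteins that make up scar tissue were not called. None of 26 collagen and matrix genes was called, and their median was 0.26. Over all genes 2.52% were called higher and 1.13% lower. *Col1a1*, the main fibrillar collagen gene, was at 15.46, 14.09 and 13.61 against 13.05, 13.91 and 14.08 (difference 0.71 ± 0.63, limma adjusted p = 0.549), and the groups overlapped. *Col3a1* (0.79) and *Fn1* (0.39) were not called. Among 17 matrix metalloproteinases and inhibitors 2 were called higher, the leukocyte protease *Mmp25* (at least 6.59-fold, limma adjusted p = 0.00163) and the collagenase *Mmp13* (at least 3.75-fold, limma adjusted p = 0.0464). In the TGF-beta pathway, 1 of 23 measured genes was called higher and 3 lower. *Tgfbi*, a matrix protein that TGF-beta induces, rose by 1.35. *Smad6* (-1.89), *Smad7* (-1.04), both inhibitors of the pathway, and the endothelial coreceptor *Eng* were lower, and *Tgfb1* (0.35) was not called. Among 15 immediate early and stress genes *Ier2* (-1.28) was called, and none of 16 clock genes was.

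Grafts with OB were set beside the non-OB grafts at these genes. Both were compared with the same 3 sham arrays, so their values are given side by side and the difference between them was tested directly. The median log2 difference from sham was 2.15 in OB grafts at the genes called higher in non-OB grafts, and -1.83 at those called lower. OB minus non-OB had a median of 0.21 and -0.18 at these genes. By limma, 0 of 56601 probes differed between OB and non-OB grafts at an adjusted p under 0.05 (smallest adjusted p = 0.893), while 307 higher and 795 lower in OB had an unadjusted p under 0.05. In that test 36 of the 578 genes called higher in non-OB grafts and 41 of the 258 called lower had an unadjusted p under 0.05. None passed after adjustment. The genes were chosen by their non-OB values, which enter that test too, so these counts and medians depend on the choice.

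At single genes the size of the difference can be given, although none passed the adjustment and a p that misses the threshold does not show equal levels. *Cd8a* was at 9.48, 9.86 and 10.12 in OB grafts, above all 3 non-OB grafts. *Cd8b1* was at 12.69, 12.26 and 12.79, also above them. The share of all genes at which OB and non-OB arrays lie apart was not counted. The separations at these genes, and at *Mb* and *Ckmt2* below, are therefore description only. *Ccl3* exceeded sham by 3.07 in OB and 1.79 in non-OB grafts, and *Ccl4* by 3.04 and 1.57. *Lag3* exceeded sham by 3.73 and 2.82 and *Tox* by 3.17 and 2.16. *Cxcl9* exceeded it by 9.0 and 8.37, an OB minus non-OB difference of 0.63 ± 0.36. In contrast, *1810009J06Rik* was lower in OB grafts, with 9.32, 8.36 and 9.92 against 10.91, 10.07 and 10.01 in non-OB grafts. Genes higher in OB grafts make up most of those named here. Over all probes, however, 795 were lower and 307 higher in OB at a limma unadjusted p under 0.05. *Mb* and *Ckmt2* lay nearer to sham lungs in OB than in non-OB grafts. *Mb* was at 10.93, 7.30 and 5.15 and *Ckmt2* at 8.52, 6.66 and 4.71 in OB grafts, higher than in every non-OB graft. On the same arrays the skeletal muscle list mean was 4.21, 2.15 and -0.74, and its part in these differences was not tested.

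**Figure D5:**
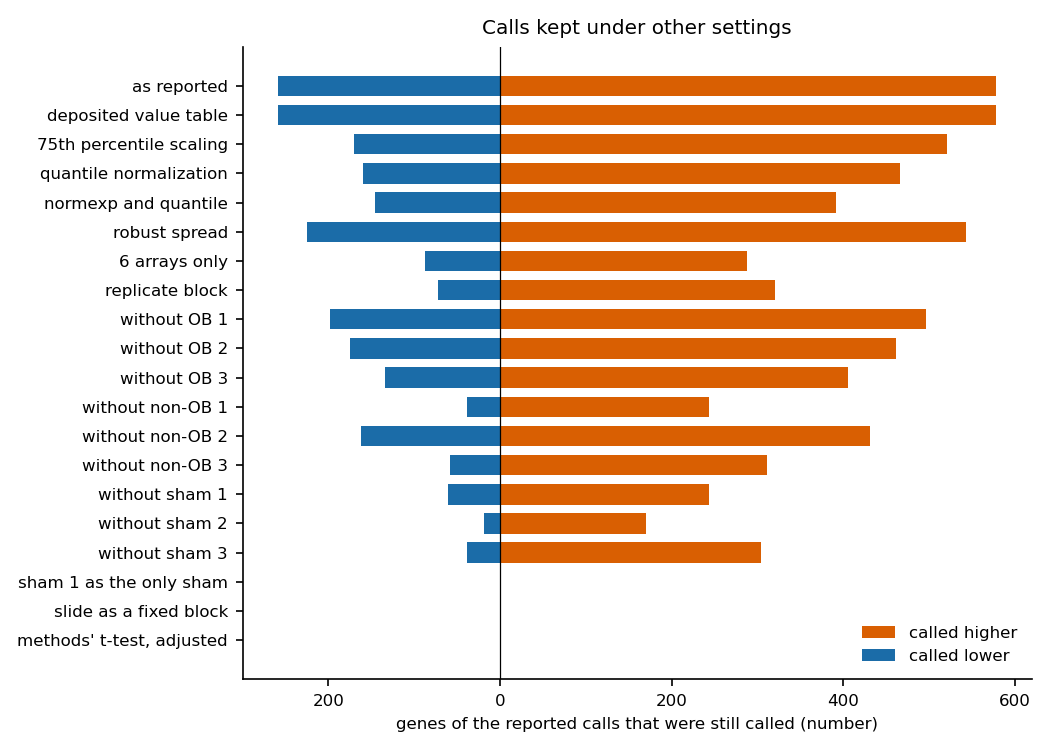
Number of genes of the reported calls (x axis) that were still called under the settings listed on the y axis, for the 578 genes called higher and the 258 called lower. Bars are at 0 for slide as a fixed block, the methods' t-test and sham 1 alone, and the bars without sham 2 are the shortest of those that leave out 1 array.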

How the data were processed

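Specimens of the left lungs of 3 non-OB grafts, 3 sham-operated mice and 3 OB grafts were measured on Agilent 1-colour arrays, 1 array a mouse. The authors extracted the scans with Agilent Feature Extraction 12.0.3.1 and deposited background-subtracted, spatially detrended intensity values for each spot, together with a table scaled to a trimmed mean. Everything else was computed here. The intensity of each array was scaled so that its mean, trimmed by 2% at each end, was 2500 (factors 1.245 to 2.046), which matched the deposited table, and was taken to log2. The 3671 control spots on each array and outlier spots were left out, the 300 repeated probes were averaged, and 56601 probes were tested. The number of arrays limits the precision.

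Genes were named by accession through RefSeq's GRCm38.p6 table (32986 probes, 22905 genes), and 320 called probes had no name. A gene was represented by the probe with the highest mean log2 signal over all 9 arrays. The test was limma 3.58.1 in R 4.3.3 with 1 mean per group, Benjamini-Hochberg adjustment and a 2-fold minimum, and the code was tested on simulated data. The genes named are the 15 largest rises and falls among called genes with non-overlapping groups whose brighter group was well above background throughout, the first members and the largest called members of 42 gene lists (746 of 765 listed genes measured), list members that were not called where a list is described, and genes the study measured by qPCR. Some members of the lists are not reported here. The comparison, gene lists and tests were chosen with earlier results of these data known. Alternatives were 75th percentile scaling, quantile normalization, normexp on the median signal with an offset of 50, a filter on dim probes, other spread models, slide and replicate blocks, the 6 arrays alone, leaving out single arrays, and the methods' t-test. Python 3.11.15, numpy 2.4.6, pandas 2.3.3, matplotlib 3.10.9 and statmod 1.5.0 were also used.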

Additional observations from a re-analysis of the deposited data

How the results depend on the processing

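The number of calls moved with the setting. Against 1027 probes called higher and 402 lower, of which 172 and 34 list genes, 0 were called in either direction by limma with slide as a fixed block (3691 higher and 5057 lower at an unadjusted p under 0.05), by the methods' t-test after adjustment (3676 and 5122) and, as an alternative chosen after seeing the data, against sham 1 alone (2536 and 1962), where the lone sham is assumed to vary like the other groups. The cause was not tested. At an unadjusted p under 0.05 and 2-fold, the methods' t-test gave 2243 higher, 1405 lower and 92 list genes lower. The 6 arrays alone gave 536 higher, 194 lower and 114 list genes higher. Slide as a random block gave 881 lower and 52 list genes lower, the filter on dim probes 707 and 53, and a mean-variance trend 54 list genes lower. Each array measured a different mouse, and the labels give no pairing by replicate number. Deviations of same-numbered non-OB and sham arrays from their group means correlated at 0.089, 0.0588 and 0.258, which cannot exclude a pairing. With the replicate block 584 probes were called higher, 127 lower and 10 list genes lower. With 1 array left out, calls ranged from 277 to 920 higher and 29 to 403 lower, and list genes from 77 to 162 higher and 3 to 33 lower. The lowest came without sham 2. Without non-OB 1 they were 454 and 66, without non-OB 3 583 and 135, without sham 1 415 and 125, without sham 3 542 and 69, and without OB 3 238 were lower. The median log2 difference of all probes was 0.13 as scaled here and -0.02 after quantile normalization. Of the 42 list medians, 14 moved by over 1.5 times with normexp, 13 with slide as a fixed block and 15 against sham 1 alone. The list medians that changed sign were those of skeletal muscle (-0.25, 1.01 with slide as a fixed and 0.39 as a random block), type 2 cells (0.09, -0.05 with the fixed block), mast cells, basophils and eosinophils (-0.20, 0.14 with the fixed block), B cells (0.26, -0.11 without non-OB 3 and -0.19 without sham 1), alveolar macrophages (-0.52, 0.01 without non-OB 1) and the clock (-0.24, 0.36 without sham 1). With normexp, the medians of adipocyte and Schwann cell genes were -0.80 and -0.38. OB minus non-OB called 0 of 760 named genes under every alternative run, with 64 at an unadjusted p under 0.05 as reported and 45 to 121 under the alternatives. Genes well above background in 1 group have only a bound of their fold.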
